A study of Danio rerio with 9 samples.

Results

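Whole inner ears of adult zebrafish taken 2 days after a sound exposure (Day 2) were compared with ears of fish that had not been exposed (Control). The members of the comparison were the probes whose spots were well above the local background, by the flag of the scanner software, on every array of Day 2 or on every array of Control. There were 10040 such probes of the 21495 on the array. Of these, 9566 were above background on all 6 arrays, 198 on every Control array but not on every Day 2 array, and 276 the other way round. A gene symbol could be given to 6390 member probes, which stood for 4773 genes, and 3650 probes had none. The genes that the study itself tabulated account for 74 member probes, and they are named below only where a group of genes needs them.

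Each group was 1 RNA pool from the ears of both sides (saccule, lagena, utricle and semicircular canals) of 18 to 20 fish, hybridized to 3 one-color arrays. The exposed fish had been kept under a 100 Hz tone for 36 h, were then moved to recovery tanks and were killed 2 or 4 days later. Control fish had been in the exposure chamber for as long with the sound off, and the study describes no stay in a recovery tank for them. The part that this difference has in the results was not tested. The 9 arrays of the series are therefore technical replicates, and all P-values measure only the spread between hybridizations of the same RNA, not the spread between fish. Fish of a group were dissected in turn over several hours, and the hour of day at which each group was killed is not given in the sources used here.

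The fish ear holds sensory hair cells, supporting cells, the nerve endings that serve them, otoliths and the resident immune cells of the tissue. Loud sound damages hair cells, and fish, unlike mammals, replace them from supporting cells. Macrophages, which engulf dying cells, and the transcription factors of the AP-1 family, which are induced within minutes of a stimulus, belong to the known response of the ear to damage. The circadian clock is a loop in which Bmal and Clock proteins drive the genes of the Period, Cryptochrome and Rev-erb proteins, which then repress the loop.

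Levels are log2 signals minus the 75th percentile of the same array, to which all arrays were scaled. The share of spots above background ranged from 47.3% to 56.9% over the 6 arrays. Arrays with the same scan time in their headers were taken to share a slide. By this rule replicate numbers 1 to 3 stand for 3 slides, each with 1 Control and 1 Day 2 array. Slide 3 was scanned on another day and its median local background was 129 and 141 intensity units, against 63.5 to 74 on slides 1 and 2. Known markers were uneven on this array design. None of the 9 hair cell markers had a probe that was above background on all 6 arrays, and only 2 had a probe (myo6b was measured on 2 Control arrays and 1 Day 2 array, cdh23 on none). The otolith matrix gene stm was measured on every array. All 4 neuronal, 2 glial, 3 red cell and 3 epithelial markers with a probe were measured on all 6 arrays, and none of these was significantly regulated. Of the 5 muscle markers measured on all 6 arrays, tnnc1b and atp2a2a were lower on Day 2. The others, ckma (log2 fold change -0.42), mylpfa (-0.14) and acta1a (0.53), were not significantly regulated. The macrophage markers mpeg1.1 and c1qb were higher on Day 2, and 3 pituitary hormone genes (pomca, lhb and cga) were higher on Day 2 than in Control. pomca and cga were not well above background on all Control arrays (cga was so on 1 Day 2 array), while lhb was on all 6 arrays by 1 of its 2 probes. The part that other cell types in the dissected tissue have in the results was not tested.

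A probe was called significantly regulated at an adjusted P-value (limma, Benjamini-Hochberg over all 21495 probes) of at most 0.05 and a fold change of at least 1.4. Of all probes, 629 (2.93%) were called, 410 higher (1.91%) and 219 lower (1.02%) on Day 2. Of the member probes, 555 (5.53%) were called, 367 higher (3.66%) and 188 lower (1.87%). Probes outside the tabulated genes made up 340 of the calls higher and 166 of those lower. Of the 276 members measured throughout on Day 2 only, 43 were called higher and none lower. Of the 198 measured throughout in Control only, 31 were called lower and none higher. For these probes, whose folds are given below as bounds or estimates, the direction follows from the choice of members. Of the 4773 genes, each read from its brightest member probe, 281 (5.89%) were called, 196 higher (4.11%) and 85 lower (1.78%). The counts of calls in gene lists below are to be set beside these shares, and some genes are in more than 1 list. All 249 called genes that were measured on all 6 arrays had groups that did not overlap and moved the same way on each of the 3 slides. A call on these same arrays nearly ensures both, so neither adds support to the calls. The groups did not overlap for 58.1% of all 4616 genes measured on all 6 arrays and for 57.0% of the 9566 probes (of the genes, 28.0% with every Day 2 array above Control and 30.1% with every Day 2 array below). The called genes were mostly changed by less than 2-fold, with a median log2 fold change of 0.70 for those higher and -0.73 for those lower, while the median over all 4616 genes was -0.01.

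The number of calls depended on the arrays in the model. With 1 of the 6 arrays left out it fell from 555 to between 26 (without Control replicate 3) and 153 (without Day 2 replicate 1). All 555 kept their direction, which a call on these same arrays nearly ensures, so it adds no support. No probe was called without the arrays of slide 3 (752 without adjustment) or after normexp background correction (306 without adjustment). Among the 118 called genes named here, 10 were called whichever array was left out and also with the 50th percentile in place of the 75th. They were the clock genes nr1d1 and per1b, the AP-1 gene junba, the macrophage gene mfap4.1 and the slow muscle genes myl13, atp2a2a and tnnc1b. The others were the pituitary genes lhb and pomca and the tetraspanin gene tspan37, the only 1 of the 10 that the study had not tabulated. tspan37, pomca and the probe read for lhb are members only through the group where they were brighter. Their direction follows from the choice of members, so their calls in these settings add no support for it.

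**Figure D1:**
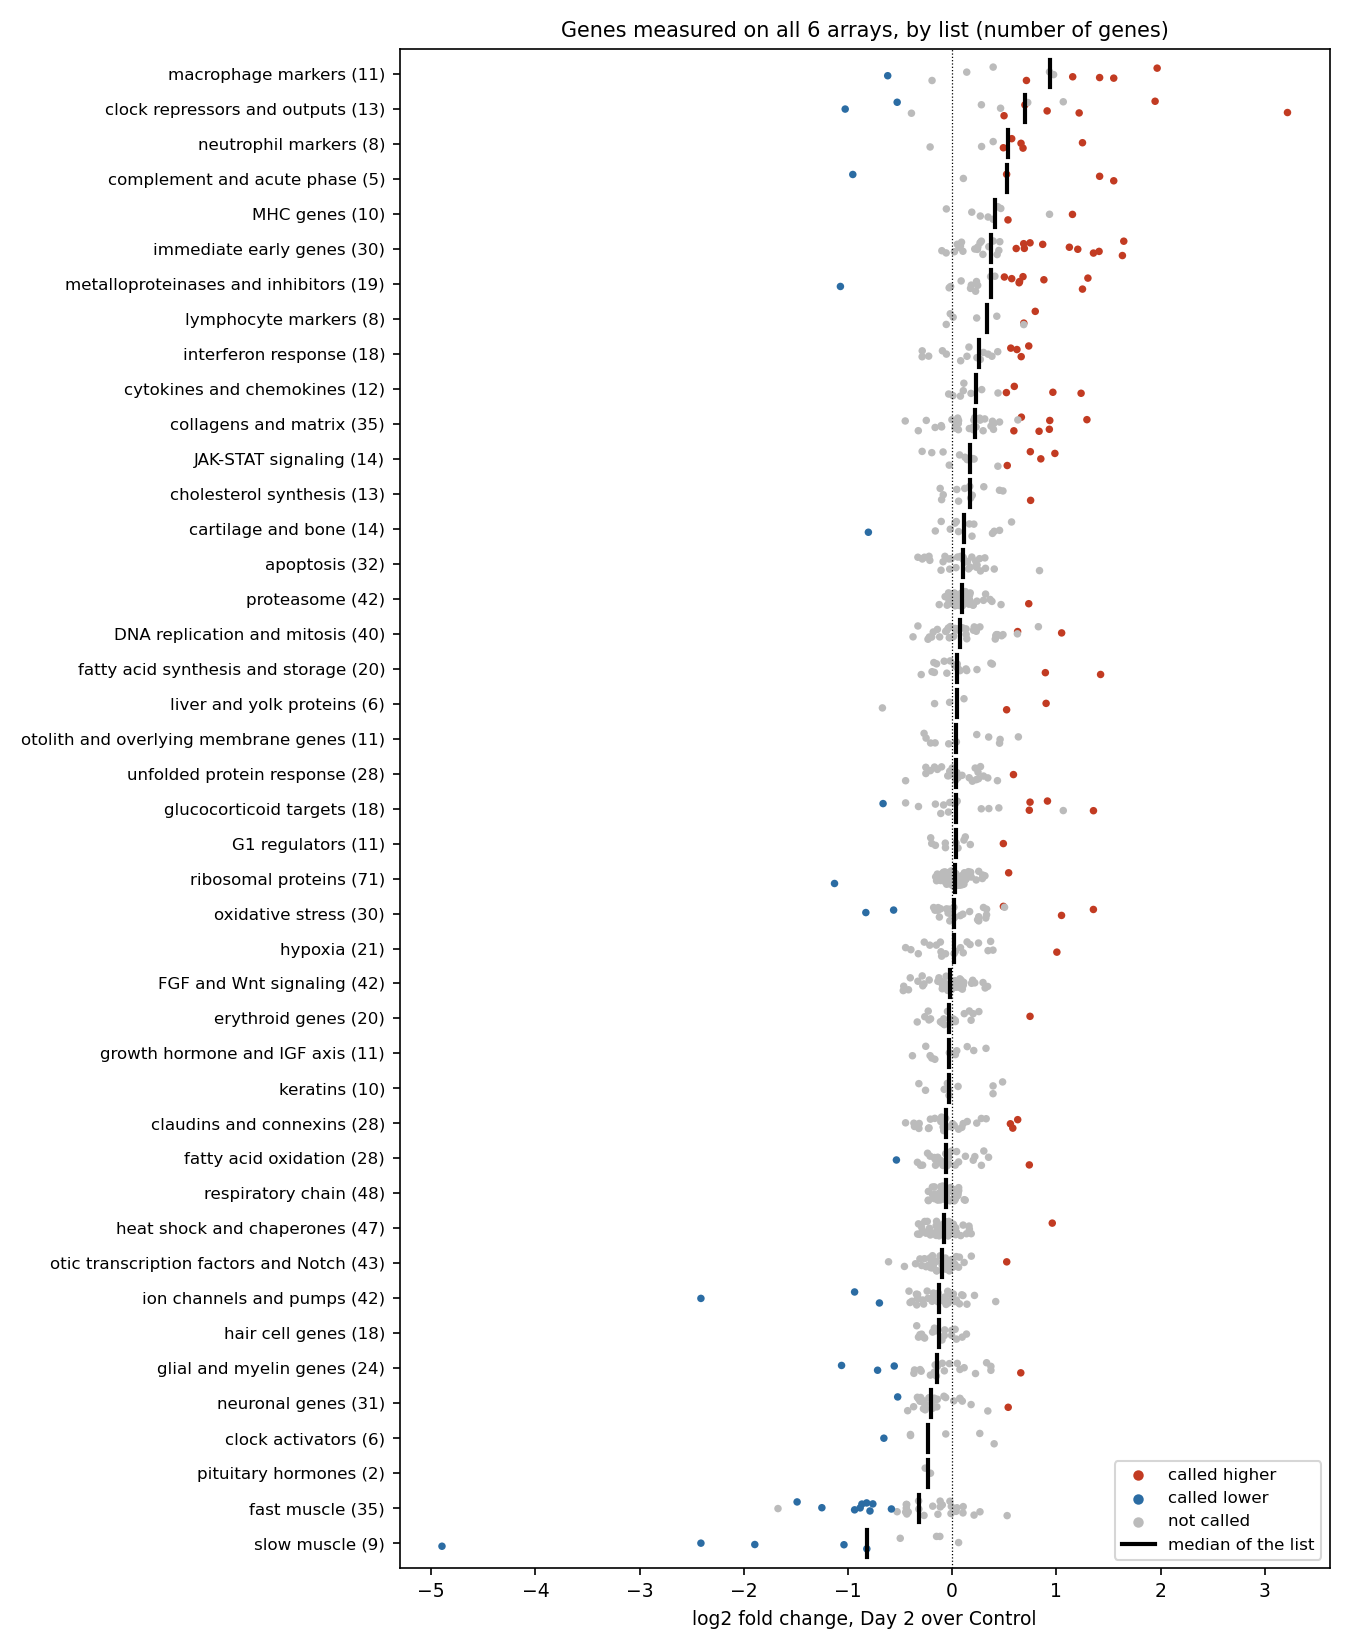
Log2 fold change of Day 2 over Control (x axis) for every gene measured on all 6 arrays in the 43 gene lists (y axis, number of genes in parentheses); red and blue points are genes called higher and lower, grey points are not called, and black bars are the medians of the lists. Macrophage markers (median 0.93) and clock repressors (0.70) lie at the top and slow muscle genes (-0.82) at the bottom, while the median over all genes was -0.01.

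Genes of the circadian clock were regulated in both directions. Of 14 member genes on the negative arm of the clock and its direct outputs, 7 were called higher and 2 lower, and the median log2 fold change was 0.70 over the 13 measured on all 6 arrays. Of 6 genes of the positive arm and its kinases, none was called higher and 1 was lower, with a median of -0.23. The nuclear receptor gene nr1d1 (Rev-erb alpha, a repressor of bmal genes, chromosome 3, 15747934 to 15747993 on danRer2) stood at -1.51, -1.48 and -1.52 on the Control arrays and at 1.62, 1.76 and 1.77 on the Day 2 arrays, a rise of 3.22 (SE 0.070, adjusted P-value 0.00036). Its relative nr1d2b stood at 3.08, 3.1 and 3.03 in Control and at 4.33, 4.28 and 4.26 on Day 2 (log2 fold change 1.22, SE 0.069, adjusted P-value 0.00363). Both receptors were higher on every Day 2 array than on any Control array, by about as much on each slide. The period gene per1b (per4 on the array), whose protein inhibits the Bmal and Clock pair, stood at 1.35, 1.37 and 1.37 in Control and at 3.41, 3.24 and 3.29 on Day 2 (log2 fold change 1.95, SE 0.077, adjusted P-value 0.00147). The study had tabulated nr1d1 and per1b. bhlhe40, another repressor that binds the same sites as the clock activators, rose by 0.70, and per2, with 0.73, was not called.

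The cryptochrome genes did not move together. cry-dash, a relative of the photolyases that repair DNA in light, stood at -0.57, -0.72 and -0.57 in Control and at 0.36, 0.21 and 0.31 on Day 2, a rise of 0.91 (SE 0.080, adjusted P-value 0.00925). cry1b rose by 0.50, and cry5, which was above background on 2 Control arrays and 3 Day 2 arrays, was about 1.66-fold higher. In contrast, cry3b (labelled cry2b on the array) stood at -1.15, -1.09 and -1.16 in Control and at -2.13, -2.08 and -2.27 on Day 2, so that every Day 2 array was below every Control array (log2 fold change -1.03, SE 0.072, adjusted P-value 0.00556). cry4 fell by 0.53 (adjusted P-value 0.0376), and its other member probe gave -0.47 without being called. cry2, with 1.07, was not called. On the positive arm, bmal1a, which encodes the activator that Rev-erb proteins repress, stood at 2.14, 2.07 and 2.08 in Control and at 1.52, 1.42 and 1.39 on Day 2 (log2 fold change -0.66, SE 0.064, adjusted P-value 0.0123), and bmal1b, with -0.40, was not called. With 1 array left out, between 2 and 4 of the 9 calls among repressors and outputs were made, and that for bmal1a was not made.

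Immediate early genes, which are transcribed without new protein synthesis after a stimulus, rose in 11 of 30 cases and fell in none, and their median was 0.37. All but 2 of the 30 had a value above 0. Beside the tabulated AP-1 genes junba (1.65) and fosab (1.63), the second junB gene, junbb, stood at 3.30, 3.30 and 3.36 in Control and at 4.51, 4.42 and 4.41 on Day 2, a rise of 1.12 (SE 0.097, adjusted P-value 0.00872). The zinc finger gene egr2a stood at -2.99, -2.58 and -2.46 in Control and at -1.27, -1.26 and -1.27 on Day 2, a rise of 1.41 (SE 0.13, adjusted P-value 0.0108). Control arrays of egr2a were spread over a wider range than those of the other genes of the list given here by array, and the rise on the 3 slides lay between 1.2 and 1.71. With normexp background correction its value was 0.49 (unadjusted limma P-value 0.198), and with any 1 array left out it was not called. cebpb, a transcription factor of acute phase and myeloid genes, stood at 2.05, 2.22 and 2.33 in Control and at 3.42, 3.59 and 3.66 on Day 2 (log2 fold change 1.36, SE 0.079, adjusted P-value 0.00363).

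The phosphatase gene dusp5, whose product inactivates ERK kinases and is itself induced by them, stood at 0.53, 0.40 and 0.41 in Control and at 1.70, 1.65 and 1.6 on Day 2, a rise of 1.21 (SE 0.061, adjusted P-value 0.00248). Its relative dusp1 rose by 0.75 (adjusted P-value 0.00762), while dusp6 and dusp2, with 0.22 and 0.10, were not called. The antiproliferative gene btg2 rose by 0.87, the stress factor atf3 by 0.69, and the growth arrest genes gadd45ab and gadd45bb by 0.69 and 0.61. jun, with 0.24, nr4a1, with 0.08, and egr2b, with 0.05, were not called. gadd45ba, with 0.25, and gadd45aa, with -0.06, were not called either. With 1 array left out, between 1 and 6 of the 11 calls were made.

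**Figure D2:**
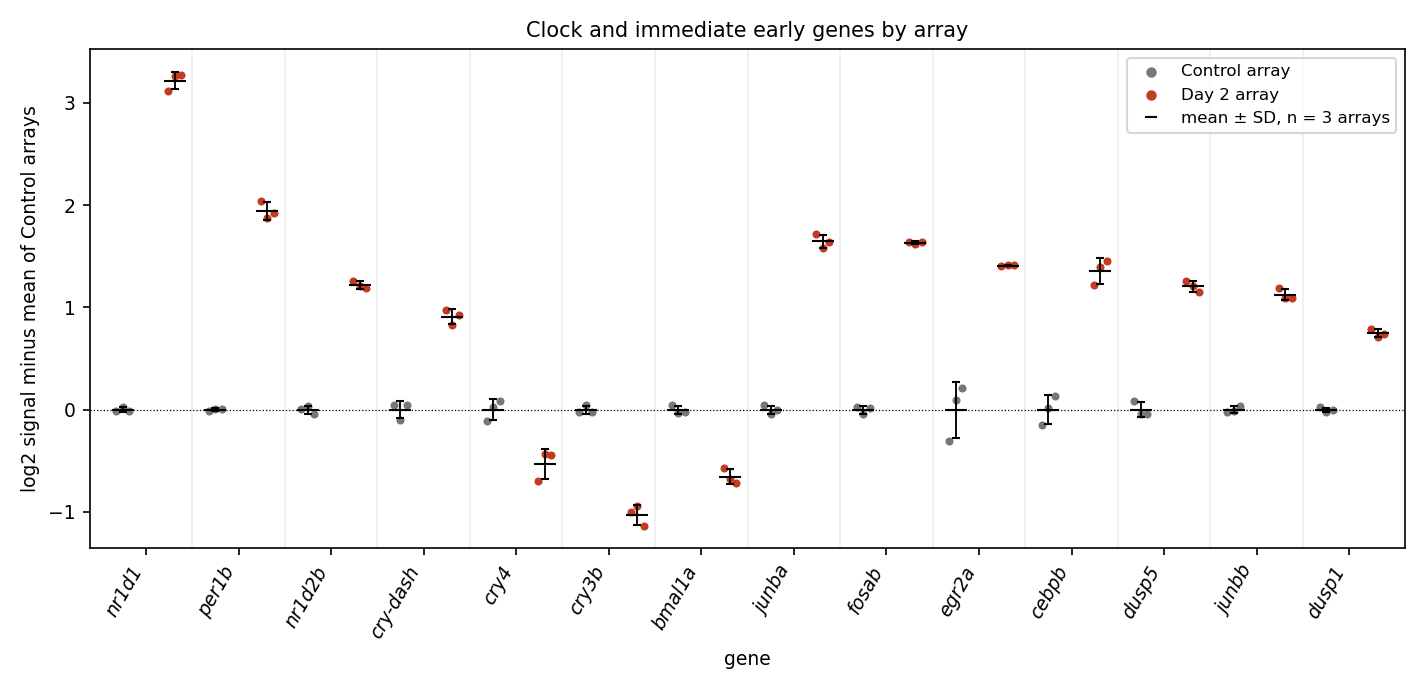
Log2 signal of each array minus the mean of the Control arrays (y axis) for clock genes and immediate early genes (x axis); grey points are Control arrays, red points Day 2 arrays, and black bars the mean ± SD of 3 arrays. nr1d1 lies 3.22 above Control, and cry3b, cry4 and bmal1a lie below it. All genes shown were picked from the called ones, which nearly ensures that the groups do not overlap.

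Signals of cytokines were represented by JAK-STAT genes, of which 4 of 14 rose and none fell (median 0.17). They were the tabulated inhibitors socs3b (0.99) and socs1a (0.85), the tabulated phosphatase gene ptpn6 (0.75) and socs3a. The last stood at 5.21, 5.24 and 5.25 in Control and at 5.77, 5.71 and 5.81 on Day 2 (log2 fold change 0.53, SE 0.065, adjusted P-value 0.0212). All 4 encode proteins that dampen cytokine receptor signals. With the 50th percentile scaling none of the 4 was called.

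Of 20 interferon response genes, 5 rose and none fell, and the median was 0.25. The antiviral GTPase gene mxa was above background on 2 Control arrays and all Day 2 arrays, with a rise of about 2.95-fold (adjusted P-value 0.00995). Its relative mxe rose by 0.62 (adjusted P-value 0.0354). The immunoproteasome subunit psmb9a stood at -1.46, -1.58 and -1.3 in Control and at -0.70, -0.74 and -0.69 on Day 2, a rise of 0.73 (SE 0.085, adjusted P-value 0.019). It was the only one of 42 proteasome genes that was called, and the median of those 42 was 0.09. The transcription factor irf7, which amplifies interferon production, rose by 0.56, and irf8, a factor of macrophage development, by 0.66. With the 50th percentile scaling 1 of these 5 calls was made, and with any 1 array left out none was.

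Among 10 genes of antigen presentation 2 rose, none fell, and 9 had a value above 0, with a median of 0.42. The class I gene mhc1uea stood at 2.37, 2.31 and 2.28 in Control and at 3.44, 3.43 and 3.55 on Day 2 (log2 fold change 1.15, SE 0.076, adjusted P-value 0.00475). The class II gene mhc2dab rose by 0.54 (adjusted P-value 0.0302), while the invariant chain gene cd74b, with 0.93, and b2m, with 0.27, were not called. At most 1 of the 2 calls of the list was made with 1 array left out. The list does not hold every such gene on the array. Others outside it were looked up after their values were seen, and they lay in both directions. The class I mhc1uxa2 probe A_15_P114268 rose by 1.02 (adjusted P-value 0.0115). The class II alpha chain 2 probe A_15_P102324, above background on 2 Control arrays and all Day 2 arrays, was at least 3.06-fold higher (adjusted P-value 0.0085). The direction of the latter follows from the choice of members. 2 genes, both tabulated by the study, were lower on Day 2. The class I gene hla-ze was above background on all Control arrays and no Day 2 array by 2 of its probes, at least 14.2-fold lower on A_15_P112825 (adjusted P-value 0.00226) and at least 6.19-fold lower on A_15_P113423 (adjusted P-value 0.00701), while another of its probes, A_15_P100051, gave 0.18 and was not called. The class II alpha chain gene a4, on A_15_P101844, stood at -0.99, -0.94 and -0.92 in Control and at -2.21, -2.18 and -2.31 on Day 2, a fall of 1.29 (SE 0.067, adjusted P-value 0.00261). The called hla-ze probes are members only through Control, so their direction also follows from the choice of members. Called genes of antigen presentation lay in both directions, but of those named here and measured on all 6 arrays only a4 was lower. Class I and class II genes form families of similar sequence, and a probe of these families may have taken up transcripts of more than 1 gene.

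Macrophage genes formed the list with the highest median, 0.93 over 11 genes, and 5 of its 12 member genes rose and 1 fell. The mean level over the list was 1.74 to 1.90 on the Control arrays and 2.58 to 2.65 on the Day 2 arrays. mpeg1.1, a pore-forming protein gene that marks zebrafish macrophages (chromosome 8, 23601512 to 23601571), stood at -0.17, -0.22 and -0.21 in Control and at 0.98, 0.93 and 0.96 on Day 2, a rise of 1.16 (SE 0.058, adjusted P-value 0.00233). c1qb encodes a chain of the complement protein C1q, which macrophages secrete. It stood at 1.53, 1.44 and 1.51 in Control and at 2.87, 2.93 and 2.92 on Day 2 (log2 fold change 1.42, SE 0.085, adjusted P-value 0.00385). Its probe lies on chromosome 21 (15042303 to 15042362), near that of the tabulated C1q gene c1qc (15036742 to 15036801), which rose by 1.55. The groups of these genes were far apart compared with the spread of their arrays, which a call nearly ensures, so it adds no support. In pooled tissue, more cells of a type and more RNA per cell cannot be told apart.

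The other called members of the list were the tabulated gene mfap4.1, at 1.97, the phagocytic receptor gene havcr1, which rose by 0.71, and the galectin gene lgals9l1, which fell by 0.62. The lysosomal gene grna, with 0.97, and the lipid carrier genes apoeb and apoc1, with 0.14 and -0.19, were not called. The receptor gene csf1ra, a defining marker of the lineage, was not above background on any of the 6 arrays. mafbb, a transcription factor gene of monocytes and macrophages that the list did not hold, showed the largest called rise of any gene measured on all 6 arrays outside the tabulated ones. It stood at -0.59, -0.55 and -0.53 in Control and at 1.03, 0.86 and 1.12 on Day 2 (log2 fold change 1.56, SE 0.11, adjusted P-value 0.0061), and its 4 member probes gave 1.55 to 1.59, 3 of them called. With 1 array left out, between 1 and 4 of the 6 calls of the macrophage list were made.

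Of 9 neutrophil genes 5 rose and none fell (median 0.53). They were the tabulated collagenase gene mmp13a (1.25), the gelatinase gene mmp9 (0.68), the lysozyme gene lyz (0.66), adam8a (0.57) and the oxidase subunit cyba (0.49). cybb, with 0.39, was not called. At most 1 of the 5 calls was made with 1 array left out. lyz stood at 2.2, 2.11 and 2.17 in Control and at 2.87, 2.80 and 2.79 on Day 2 (SE 0.10, adjusted P-value 0.0414). The myeloperoxidase gene mpx, the defining marker of these cells, was not above background on any of the 6 arrays. Of 8 genes of lymphocytes and other leukocytes 2 rose, the GTPase gene rac2 by 0.80 (adjusted P-value 0.00961) and the actin-binding gene coro1a by 0.69 (adjusted P-value 0.00872), and neither is confined to lymphocytes. The kinase gene lck, with 0.43, was not called.

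Receptors of leukocyte migration rose as well. Of 14 cytokine, chemokine and receptor genes 4 were called higher and none lower, and 11 of the 12 measured on all 6 arrays had a value above 0 (median 0.23). cxcr3.2 stood at -0.44, -0.48 and -0.32 in Control and at 0.79, 0.79 and 0.90 on Day 2, a rise of 1.24 (SE 0.060, adjusted P-value 0.00226), and its other member probe was called too. cxcr4b, the receptor of Cxcl12 (chromosome 9, 6089896 to 6089955), stood at 1.70, 1.65 and 1.67 in Control and at 2.57, 2.64 and 2.70 on Day 2 (log2 fold change 0.97, SE 0.064, adjusted P-value 0.00475). Its duplicate cxcr4a rose by 0.60 (adjusted P-value 0.0334) and the receptor of double-stranded RNA tlr3 by 0.52 (adjusted P-value 0.0316). At most 2 of these 4 calls were made with 1 array left out. Of the 5 complement and acute phase genes with a member probe, 3 rose, of which c1qb and c1qc are also in the macrophage list. Ceruloplasmin (cp), the copper-carrying ferroxidase, fell. cp stood at 5.53, 5.54 and 5.49 in Control and at 4.65, 4.55 and 4.50 on Day 2 (log2 fold change -0.95, SE 0.084, adjusted P-value 0.00925).

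Proteases and their inhibitors showed 8 rises and 1 fall among 19 genes, with a median of 0.37. The rises of mmp13a, mmp9 and adam8a are also counted in the neutrophil list. The lysosomal cysteine protease gene ctss1 (cathepsin S) stood at 0.58, 0.54 and 0.58 in Control and at 1.86, 1.88 and 1.87 on Day 2, a rise of 1.3 (SE 0.063, adjusted P-value 0.00226). Of its other member probes, 1 gave 1.24 and was called and 1 gave 0.03. Cathepsin C (ctsc), which activates granule proteases, rose by 0.88 (adjusted P-value 0.0052), cathepsin H (ctsh) by 0.64, and the membrane-bound collagenase mmp14b by 0.65 (adjusted P-value 0.0123). ctslb, a cathepsin L gene, stood at -1.25, -0.76 and -1.21 in Control and at -2.15, -2.16 and -2.12 on Day 2 (log2 fold change -1.07, SE 0.12, adjusted P-value 0.0181), and both of its member probes were lower. The inhibitor genes timp2a and timp2b, with -0.02 and 0.41, were not called.

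**Figure D3:**
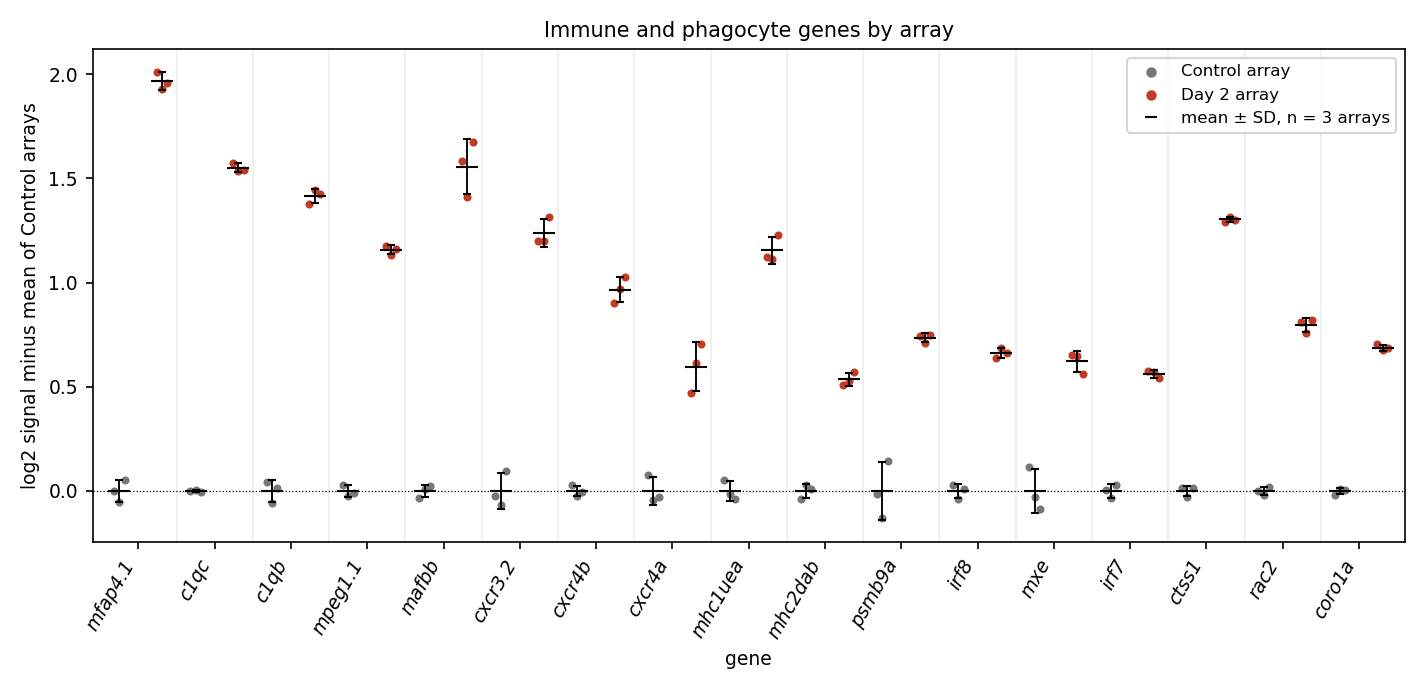
Log2 signal of each array minus the mean of the Control arrays (y axis) for genes of macrophages, chemokine receptors, antigen presentation, the interferon response and leukocyte enzymes (x axis); grey points are Control arrays, red points Day 2 arrays, and black bars the mean ± SD of 3 arrays. The genes shown were picked from those called higher, from mfap4.1 (1.97) and mafbb (1.56) to irf7 (0.56) and mhc2dab (0.54). That they lie above Control without overlap follows from this choice. Called genes of these groups that were lower, such as lgals9l1, hla-ze and a4, are not shown.

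Of 37 collagens and other matrix genes, 6 rose and none fell, and the median was 0.22. col1a1b, a chain of the main collagen of skin and bone, stood at 0.04, 0.03 and -0.03 in Control and at 1.03, 0.93 and 0.87 on Day 2 (log2 fold change 0.93, SE 0.069, adjusted P-value 0.00624). The other collagen I genes col1a1a and col1a2, with 0.30 and 0.31, were not called. The hyaluronan link protein gene hapln3 rose by 0.94 (adjusted P-value 0.0112), the tabulated fibronectin gene fn1b by 1.29, fibulin 1 (fbln1) by 0.83, lumican (lum) by 0.66 and mfap2 by 0.59. At most 3 of the 6 calls were made with 1 array left out. vtn, which the list did not hold, encodes the adhesive plasma and matrix protein vitronectin. It stood at -0.51, -0.64 and -0.68 in Control and at -1.89, -1.73 and -1.84 on Day 2 (log2 fold change -1.21, SE 0.16, adjusted P-value 0.0262). Its other member probe gave -0.84 and was not called. The call for vtn was made in 8 of the 19 alternatives, and not with the 50th percentile scaling (limma adjusted P-value 0.131). Of 17 cartilage and bone genes none rose and 1 fell, osteopontin (spp1), at 1.35, 1.37 and 1.36 in Control and 0.59, 0.54 and 0.54 on Day 2 (log2 fold change -0.80, SE 0.083, adjusted P-value 0.0144).

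Genes of DNA replication and mitosis had a median of 0.08, close to that over all genes. Of 49 member genes 5 rose and none fell, while 4.11% of all genes were called higher. Among the 40 measured on all 6 arrays, only mcm5 and aurkb were called. The replication helicase subunit mcm5 stood at -2.49, -2.47 and -2.50 in Control and at -1.47, -1.38 and -1.46 on Day 2, a rise of 1.05 (SE 0.061, adjusted P-value 0.00363), and both of its member probes were called. The kinase gene aurkb, which acts in chromosome segregation, rose by 0.63 (adjusted P-value 0.047). 3 others were above background on 2 Control arrays and all Day 2 arrays. They are members only through Day 2, where they were brighter, so their direction follows from the choice of members. The mitotic kinase gene cdk1 was about 1.98-fold higher, the thymidylate synthase gene tyms at least 1.78-fold and the spindle checkpoint kinase gene ttk at least 1.62-fold. The replication genes prim2, with 0.83, mcm3, with 0.63, and mcm4, with 0.47, were not called, and pcna and rrm1, with 0.03 and -0.04, had values near 0. Of 11 regulators of G1, ccng2, a cyclin gene of arrested cells, rose by 0.49 (adjusted P-value 0.0227). With 1 array left out, at most 1 of the 5 calls for replication and mitosis was made.

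Among genes of lipid handling, lpla, which encodes lipoprotein lipase, stood at 1.1, 1.14 and 1.2 in Control and at 2.56, 2.55 and 2.56 on Day 2 (log2 fold change 1.41, SE 0.060, adjusted P-value 0.00151). Of 21 genes of fatty acid synthesis and storage 3 rose and none fell (median 0.05). They were the tabulated genes of the desaturase scd, about 5.34-fold higher, and of the triglyceride-forming enzyme dgat1a (1.42), and the fatty acid carrier gene fabp4a. The last stood at 2.87, 2.80 and 2.92 in Control and at 3.79, 3.72 and 3.77 on Day 2 (log2 fold change 0.89, SE 0.065, adjusted P-value 0.00619). Of 14 genes listed under cholesterol synthesis, the only call was for lipg, an endothelial lipase gene that makes no cholesterol, which rose by 0.75 (adjusted P-value 0.0198). In fatty acid oxidation (29 genes, median -0.06), pdk2b, a kinase that turns off pyruvate oxidation, rose by 0.74 and cpt1b, which carries fatty acids into muscle mitochondria, fell by 0.54. The polyamine synthesis gene odc1 stood at 1.80, 1.94 and 1.95 in Control and at 2.89, 3.15 and 3.15 on Day 2 (log2 fold change 1.16, SE 0.071, adjusted P-value 0.00388).

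Some stress genes were called in lists whose medians lay near 0. Of 47 heat shock and chaperone genes only hsf2, a heat shock transcription factor, was called, at 0.66, 0.67 and 0.72 in Control and 1.62, 1.65 and 1.66 on Day 2 (log2 fold change 0.96, SE 0.075, adjusted P-value 0.00708), and the median was -0.07. Of 28 genes of the unfolded protein response the disulfide isomerase txndc5 rose by 0.59 (adjusted P-value 0.0204). In the oxidative stress list 3 of 30 rose and 2 fell (median 0.02). cyp1a, the main target gene of the aryl hydrocarbon receptor, stood at -1.58, -1.54 and -1.71 in Control and at -0.23, -0.28 and -0.26 on Day 2, a rise of 1.36 (SE 0.071, adjusted P-value 0.00272). The glutathione transferase gene gstm.1 rose by 1.05 (adjusted P-value 0.0048), and the thioredoxin-like gene txnl1 and the ferritin gene fth1b fell by 0.83 and 0.56. Of 21 hypoxia genes only vegfc, a growth factor of lymphatic vessels, rose, by 1.00 (adjusted P-value 0.00493). Of 18 glucocorticoid targets 4 rose, among them pck2 (0.91), cebpb and dusp1, and zbtb16a fell by 0.66, with a median of 0.04. entpd2a.1, whose product breaks down extracellular ATP, stood at -1.31, -1.33 and -1.29 in Control and at -0.06, -0.12 and -0.13 on Day 2 (log2 fold change 1.21, SE 0.059, adjusted P-value 0.00226).

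Muscle genes gave more falls than the genes of any other list. Of 10 slow muscle genes none rose and 5 fell (median -0.82), and of 39 fast muscle genes none rose and 9 fell (median -0.32). Of the slow genes, myl13 (-4.90), atp2a2a (-2.41), tnnc1b (-1.89) and tpm2 (-1.04) had been tabulated by the study, and the sarcomere scaffold gene ldb3b fell by 0.82 (adjusted P-value 0.0276). pvalb4, a parvalbumin gene (chromosome 3, 44736437 to 44736496), showed the largest called fall outside the tabulated genes among those measured on all 6 arrays (the creatine kinase gene ckmt2b gave -1.67 without being called). It stood at 0.96, 0.98 and 0.91 in Control and at -0.55, -0.47 and -0.61 on Day 2 (log2 fold change -1.49, SE 0.070, adjusted P-value 0.00226). The calcium pump gene atp2a1 stood at 0.62, 0.59 and 0.52 in Control and at -0.22, -0.39 and -0.46 on Day 2 (log2 fold change -0.94, SE 0.069, adjusted P-value 0.00624).

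The sarcomere-associated kelch gene klhl41b fell by 1.25 (adjusted P-value 0.0238) on both of its probes. smyd1a, a methyltransferase of myosin assembly, fell by 0.88, the glycolytic gene pgam2 by 0.87, the ADP/ATP carrier gene slc25a4 by 0.87, tnni2b.2 by 0.82, the alpha-actinins actn3a and actn3b by 0.79 and 0.76, and tmem38a by 0.58. The myostatin gene mstna, an inhibitor of muscle growth, was above background on every Control array and on no Day 2 array, a fall of at least 3.79-fold (adjusted P-value 0.0478), with a Control array 3 that stood apart (-2.50, -2.36 and -0.70). Other abundant fast muscle genes moved less. ckma gave -0.42, myl1 -0.44, mylpfa -0.14, tnnt3b -0.11, pvalb3 0.11 and acta1a 0.53, and none was called. The mean level over the slow genes was 2.12 to 2.16 on the Control arrays and 0.81 to 0.85 on the Day 2 arrays, and that over the fast genes 0.29 to 0.30 and -0.11 to -0.06. 3 of the 5 slow muscle calls were made whichever array was left out, but at most 2 of the 9 fast muscle calls.

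**Figure D4:**
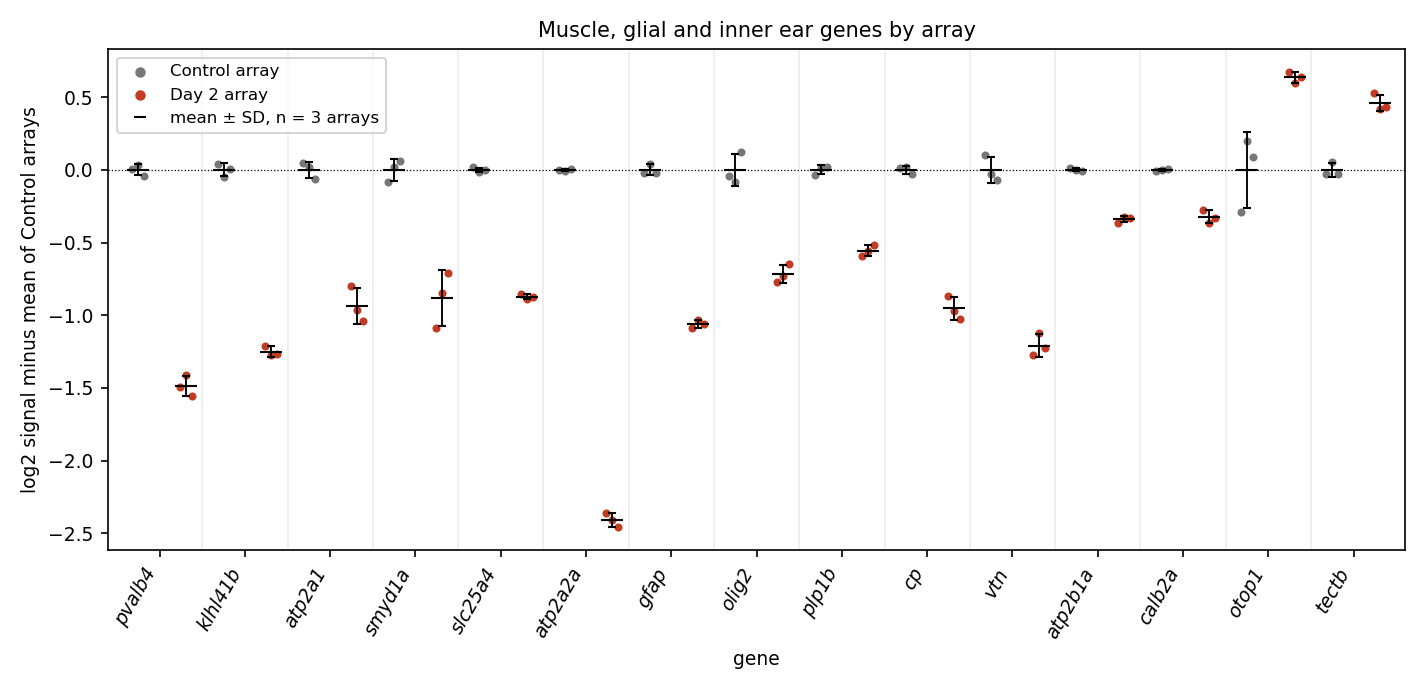
Log2 signal of each array minus the mean of the Control arrays (y axis) for genes of muscle and glia, other genes with large falls and genes of the inner ear (x axis); grey points are Control arrays, red points Day 2 arrays, and black bars the mean ± SD of 3 arrays. atp2a2a lies 2.41 and pvalb4 1.49 below Control, while the inner ear genes atp2b1a, calb2a, otop1 and tectb, at the right, were not called.

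Of 24 glial and myelin genes 3 fell and 1 rose, beside 1.78% and 4.11% of all genes, and the median was -0.15. gfap, the intermediate filament gene of astroglia (chromosome 3, 25107841 to 25107900), stood at -0.14, -0.08 and -0.15 in Control and at -1.21, -1.15 and -1.19 on Day 2, and all 3 of its member probes were lower (log2 fold change -1.06, SE 0.062, adjusted P-value 0.00363). The oligodendrocyte factor olig2 fell by 0.72 (adjusted P-value 0.0163) and the myelin gene plp1b by 0.56 (adjusted P-value 0.0152), each on both of its probes. The Schwann cell myelin gene mpz, with -0.14, sox10, with 0.11, and s100b, with -0.03, were not called, and the annexin gene anxa2a rose by 0.66. gfap, olig2 and plp1b are known mainly from glia of the brain and spinal cord. Of 32 neuronal genes syt11a fell by 0.52 (adjusted P-value 0.0481), and 24 of the 31 measured on all 6 arrays had a value below 0, with a median of -0.20. The tubulin gene tubb5 was called higher by 1 probe (0.54) and lower by another (-0.58), so that no direction can be given for it. It was the only one of 73 called genes with more than 1 member probe whose probes were called in opposite directions, and in 37 of the 73 every probe was called the same way.

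Other large falls belonged to no single list. tspan37, which encodes a membrane protein of the tetraspanin family (chromosome 2, 41151207 to 41151266), stood at -1.61, -1.43 and -1.44 on the Control arrays and gave no signal well above background on Day 2, a fall of at least 4.84-fold (adjusted P-value 0.000537). The ribosomal protein gene rps27.2 stood at 6.11, 6.30 and 6.26 in Control and at 5.11, 5.08 and 5.08 on Day 2 (log2 fold change -1.13, SE 0.11, adjusted P-value 0.0122). It was the only ribosomal gene of 71 to fall, 1 (rpl36) rose by 0.54, and the median of the 71 was 0.03. The organic anion transporter slc22a7b.1 fell by 0.98, the olfactomedin gene olfm2b by 1.06 (adjusted P-value 0.0436), and hel_dr4, a helitron-like transposable element, by 1.02 (adjusted P-value 0.0339).

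Of the 4 pituitary genes with a member probe, lhb and pomca, both tabulated by the study, were higher. lhb, the beta chain of luteinizing hormone, was measured on all 6 arrays by A_15_P109121, at -2.84, -2.86 and -2.93 in Control and 0.56, 0.41 and 0.39 on Day 2, a rise of 3.33 (SE 0.097, adjusted P-value 0.000537). Its other probe was above background on 2 Control arrays and all Day 2 arrays and was about 9.29-fold higher (adjusted P-value 0.00147). pomca, the precursor of corticotropin, was above background on no Control array and all Day 2 arrays and was at least 3.98-fold higher (adjusted P-value 0.000708). The secretory granule genes chga and scg5, with -0.26 and -0.21, were not called, and the prolactin gene prl and the thyrotropin gene tshba were not above background on any of the 6 arrays. Growth hormone itself, also tabulated, was above background on 1 Control array and all Day 2 arrays by A_15_P112144 and was at least 59.0-fold higher (adjusted P-value 0.00036). It is not among the 11 listed genes of the growth hormone and insulin-like growth factor axis. None of the 11 was called, beside 5.89% of all genes, and igf2a and igfbp7 had the values farthest from 0, -0.38 and 0.32. Of 21 erythroid genes hbba2, a beta globin gene, rose by 0.75 (adjusted P-value 0.0478), and the median was -0.03.

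None of 18 hair cell genes was called, while 5.89% of all genes were. At that share so short a list can hold no call, and nothing is read from the count. The list is not confined to hair cells, since calb2a is also in the neuronal list and slc1a3a in the glial list. Values of the 18 genes lay between -0.34 and 0.14 with a median of -0.13. The 2 farthest from 0 were the plasma membrane calcium pump gene atp2b1a, at 0.52, 0.51 and 0.49 in Control and 0.14, 0.18 and 0.18 on Day 2 (-0.34, SE 0.060, adjusted P-value 0.0547), and the calcium buffer gene calb2a, at 6.67, 6.68 and 6.69 in Control and 6.41, 6.32 and 6.35 on Day 2 (-0.32, SE 0.080, adjusted P-value 0.117). In both genes every Day 2 array was below every Control array, as in 10 of the 18 genes of the list, beside 30.1% of all genes measured in both groups. The hair cell factor gene atoh1a gave -0.26, myo7aa 0.14 and myo6a -0.16. None of 12 genes of otoliths and the membranes over the hair cells was called (median 0.04), a list as short as the last. The proton channel gene otop1 gave 0.64 (adjusted P-value 0.133), and tectb, a tectorin gene, gave 0.46 with an adjusted P-value of 0.0408 but a fold change of 1.38, which is under the threshold.

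Of 44 otic transcription factors and Notch genes, sox4b, a factor of progenitor cells, rose by 0.52 (adjusted P-value 0.0228), none fell, and the median was -0.10. None of 42 FGF and Wnt genes was called (median -0.02), and the farthest from 0 were fgf13b, with -0.47, and the Wnt inhibitor gene dkk1b, with -0.46. None of 33 genes of apoptosis was called either. Beside both lists, the share called over all genes was 5.89%. The inflammatory caspase gene caspa stood at -2.90, -2.94 and -2.91 in Control and at -1.89, -2.26 and -2.08 on Day 2 (0.84, SE 0.23, adjusted P-value 0.147), and casp3a gave 0.17, mdm2 0.19 and baxa -0.01.

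Epithelial and transport genes gave a few calls in each direction. Of 30 claudins and connexins, the tight junction genes cldn1 (cldn19 on the array, 0.63), cldn5b (0.58) and cldnb (0.56) rose. cldn10a, above background on 3 Control and 2 Day 2 arrays, was about 1.89-fold lower. None of 10 keratin genes was called, beside 5.89% of all genes. Of 47 ion channel and pump genes 2 rose and 3 fell, beside 4.11% and 1.78% of all genes. The falls were those of the pump genes atp2a2a and atp2a1, which are also in the muscle lists, and of the acid-sensing channel asic2 (-0.70, adjusted P-value 0.016). The ATP-gated channel p2rx2 was about 1.75-fold higher, and the tabulated potassium channel kcnh6a at least 2.88-fold. Both were above background on 2 Control arrays and all Day 2 arrays. For these genes and cldn10a the direction follows from the choice of members. None of 48 respiratory chain genes was called, beside the same share of all genes, and their values lay between -0.23 and 0.13. The egg envelope gene zp3b rose by 0.90 (adjusted P-value 0.00734) on both of its probes.

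Day 4 arrays were set beside these values, with Day 4:Day 2 tested and Day 4:Control given as values, since it shares the control arrays with Day 2:Control. Of the 118 called genes named here, 105 had the same sign in Day 4:Control as in Day 2:Control, and 43 were called there the same way, with the control arrays shared. In Day 4:Day 2, 39 of the 118 were called, 36 of them back toward Control and 3 further away, beside 3.38% of the member probes and 1.72% of all probes called in that comparison. The genes were chosen by the same Day 2 arrays that Day 4:Day 2 uses, which favours a move back toward Control, so nothing is read from these shares. None of these 39 calls was made when any of the 3 Day 2 arrays was left out, or with the 50th percentile scaling, and at most 1 was made without Day 4 replicate 2 or 3. By scan time, 1 of the 3 Day 4 arrays lay on slide 1 and 2 on slide 3. The methods of the study instead describe 1 array of every time point per plate, and this conflict was not resolved. No clock gene was among the 39, and none of the 9 clock repressors and outputs called on Day 2 was called in Day 4:Day 2. Values in Day 4:Control were 3.08 for nr1d1, 2.07 for per1b and 1.24 for nr1d2b. nr1d1 had a mean of 1.56 on Day 4 (Day 4:Day 2 -0.14, adjusted P-value 0.44), nr1d2b of 4.30 (0.03, adjusted P-value 0.834) and per1b of 3.45 (0.12, adjusted P-value 0.563).

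The counts by list below share that limit, the genes being chosen on the Day 2 arrays, and nothing is read from them. In the macrophage list, 5 of the 6 called genes were called in Day 4:Day 2, all back toward Control. mpeg1.1 had a mean of 0.16 on Day 4 (Day 4:Day 2 -0.81, adjusted P-value 0.0167) and c1qb of 2.09 (-0.84, adjusted P-value 0.0287), with 0.35 and 0.58 in Day 4:Control. mafbb, with a mean of -0.34 on Day 4, was 1.36 below Day 2 (adjusted P-value 0.0231), and Day 4:Control was 0.20. Of the 9 called protease genes, 5 were called back toward Control. Of the 11 immediate early genes, the 2 called were junba (-0.90) and fosab (-0.96), while cebpb (-0.57, adjusted P-value 0.0519) and dusp5 (-0.36, adjusted P-value 0.078) were not. The muscle gene atp2a1 was further down on Day 4 (-0.65, adjusted P-value 0.0298), and pvalb4 gave -0.11 and gfap 0.37, neither called. Whether these groups of genes differ from each other in their course was not tested.

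**Figure D5:**
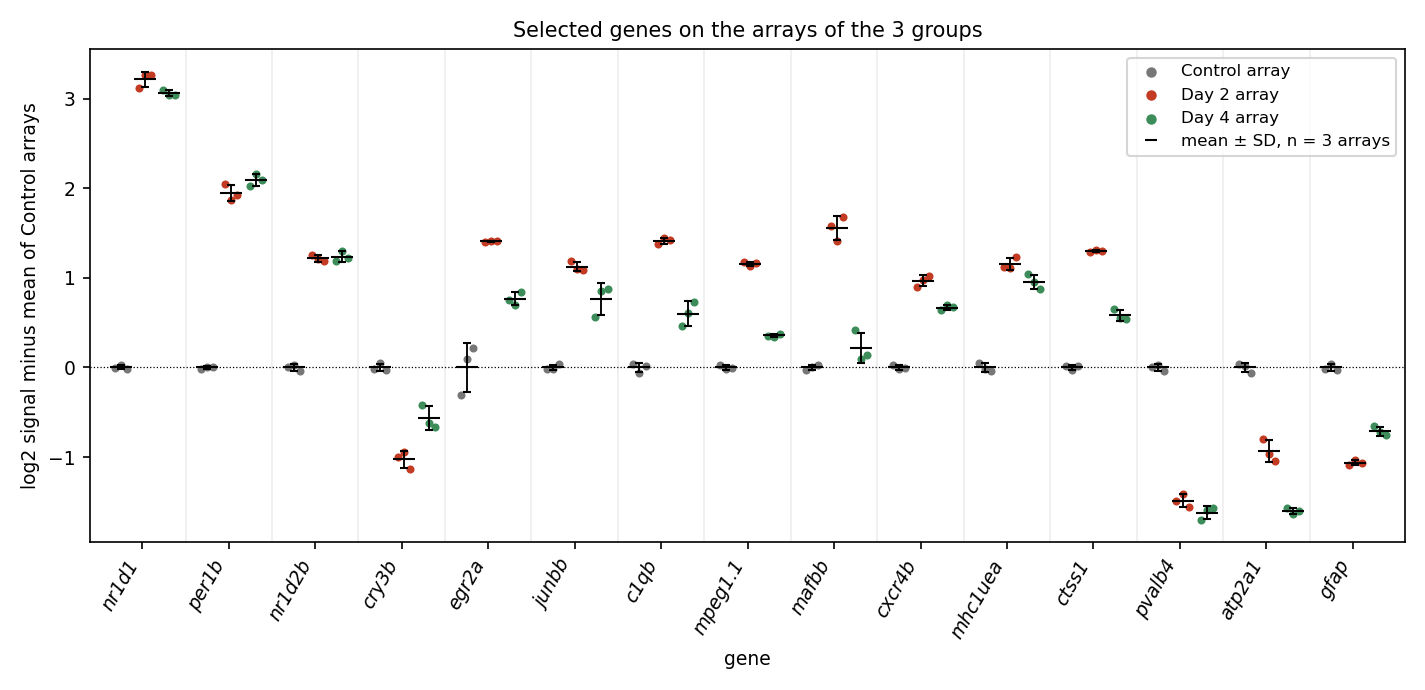
Log2 signal of each array minus the mean of the Control arrays (y axis) for 15 genes (x axis) on the Control (grey), Day 2 (red) and Day 4 (green) arrays; black bars are the mean ± SD of 3 arrays. nr1d1, per1b and nr1d2b lie at about the same height on both days. mpeg1.1, c1qb and mafbb lie lower on Day 4 (Day 4:Day 2 -0.81, -0.84 and -1.36). The genes were chosen on the Day 2 arrays, which favours a move back toward Control, and a difference in course was not tested.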

How the data were processed

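Per the file headers, the arrays were 1-color zebrafish arrays read with Agilent Feature Extraction 9.5.1, and the deposited values are linear intensity per spot. The authors' software had subtracted the background from the processed signal. The authors' own fold change tables were not used.

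Control spots and spots flagged as outliers were left out, signals under 1 intensity unit were set to 1, log2 was taken, each array was centered on its 75th percentile and both spots of a probe were averaged. limma 3.58.1 (R 4.3.3) was fitted to all 9 arrays with slide, taken from equal scan times, as a block. Over the member probes, same-slide arrays of Control and Day 2 deviated together (r = 0.44, 0.21 and 0.43), while different-slide pairs gave -0.44 to 0.12. Over all probes, same-slide pairs gave -0.45, 0.39 and 0.75 and different-slide pairs -0.80 to 0.72. The correlations over all probes therefore do not single out the same-slide pairs. P-values were adjusted by Benjamini-Hochberg over 21495 probes, and a call needed an adjusted P-value of at most 0.05 and a fold change of at least 1.4. For probes that the dimmer group did not measure on every array, a lower bound of the fold was given, with the dim arrays set to no less than the lowest signal well above background. Where the dim arrays all lay above that signal already, the value is the estimate itself and is worded as about, not as at least. The bounds do not take in the error of the estimate. On simulated data with the same number of probes, 39% of the probes changed by 1 on the log2 scale and 58% of those changed by 2 were recovered for Day 2:Control. The changed probes were drawn from all 21495, of which 11455 are not members, so these rates do not describe the member probes. The number of arrays, and no count of molecules, limits the precision.

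Gene names came from RefSeq tables, which matched 10280 probes, and positions are those of danRer2 in the files, with no annotation of that build used. Probes of near-identical family members (MHC, globin, cryptochrome, C1q and mfap4 genes) may share signal. 43 gene lists were used. Named are the 15 largest called rises and 15 largest called falls outside the tabulated genes, up to 6 genes in each direction measured in only 1 group, and up to 5 called members of each list in each direction (2 where none was called). Further list members and the transcripts without a symbol were picked after their values were seen. Members and lists were chosen with earlier results of these data known. The alternatives tried were 19 in number. Some of the genes so chosen are not reported here.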

Additional observations from a re-analysis of the deposited data

How the results depend on the processing

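Of the 555 calls among member probes (367 higher, 188 lower), all kept their direction under each alternative that gave a value, except that 549 did so with normexp. The calls were made on these same arrays, so a kept direction adds no support. With 50th percentile scaling 141 probes were called (104 higher, 37 lower), and the share of calls that were higher went from 66.1% to 73.8%. With normexp 0 were called (306 at an unadjusted P-value), and ttk (-0.025) and caspa (-0.012) changed sign. Only the 6 Control and Day 2 arrays gave 29 calls (17 higher, 12 lower), with 58.6% higher. The methods' t-test gave 484 higher and 296 lower unadjusted, and 185 (129 and 56) after Benjamini-Hochberg. An intensity trend gave 285 lower and a fit over member probes 290 lower. With no replicate block, that is without pairing by slide, 661 were called (431 higher, 230 lower). Quantile normalization gave 662 calls, and a floor of 0.01 changed no count. Without slide 3, an alternative chosen after seeing the data like the unadjusted normexp count and those on Day 4, 0 were called (752 unadjusted).

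Leaving out 1 array gave 26 to 153 calls (16 to 96 higher, 9 to 57 lower), with 52 without Control replicate 1 or Day 2 replicate 3, 27 without Control replicate 2 or Day 2 replicate 2, 26 without Control replicate 3 and 153 without Day 2 replicate 1. Slide 2 held only Control replicate 2 and Day 2 replicate 2. With slide as a block, leaving out either of them is the same fit and in effect removes both. The 39 named genes called in Day 4:Day 2 became 0 with 50th percentile scaling, 0 with normexp, and 0 to 42 with 1 array left out (0 without any Day 2 array or Day 4 replicate 3, 1 without Day 4 replicate 2, 42 without Day 4 replicate 1). The cause was not tested. The median over all probes was 0.06, and it moved to 0.12 with 50th percentile scaling and to -0.41 with normexp, while over probes measured in both groups it moved from -0.03 to 0.04 and -0.01. Dim probes give only bounds, or estimates from signals near the background, and with 1 RNA pool per group no setting measures the spread between fish.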

Other observations

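Of the 3650 member probes without a gene symbol, 121 were called higher and 66 lower. Those given here were picked after their values were seen and are named by the protein their array annotation resembles.

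Among transcripts resembling phagocyte genes, the MFAP4-like A_15_P112208 stood at -1.11, -1.13 and -1.16 in Control and at 1.18, 1.11 and 1.04 on Day 2 (log2 fold change 2.24, SE 0.059, limma adjusted P-value 0.000464). The intelectin-2-like A_15_P120422 was at least 4.87-fold higher and the cysteine proteinase-like A_15_P107066 at least 2.62-fold. A pair of chemokine receptor-like probes on chromosome 2, A_15_P119993 and A_15_P120653, rose by 0.99 and 0.89, and the complement C6-like A_15_P102211 by 1.02. The transglutaminase-like A_15_P116304, of a family of protein cross-linking enzymes, rose by 2.54 (adjusted P-value 0.00701) and was 2.16 lower on Day 4 than on Day 2.

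The cryptochrome-3-like A_15_P114878 rose by 1.1 and the DEC1-like A_15_P100831, a relative of a clock repressor, by 0.77. The interferon-related VHSV-induced protein-10-like A_15_P103566 was at least 2.54-fold higher and the Tyki-like A_15_P119659 at least 2.23-fold.

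The slow troponin I-like A_15_P112520 was above background on all Control arrays and 1 Day 2 array, a fall of at least 14.3-fold (adjusted P-value 0.00036). The slow troponin T-like A_15_P114860 was at least 2.29-fold lower, and the myosin light chain 2-like A_15_P108119 fell by 1.23.

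Probes resembling vitellogenin 1, the yolk precursor made by the liver of females, fell together. On chromosome 22 (danRer2), 3 of them lie between 24628341 and 24629771 and A_15_P121345 at 24923064. A_15_P120419 gave -1.60, A_15_P120585 -1.51, A_15_P117147 -1.40 and A_15_P121345 -1.19. The last stood at -0.35, -0.41 and -0.35 in Control and at -1.52, -1.56 and -1.61 on Day 2 (SE 0.094, adjusted P-value 0.00737), and its mean on Day 4 was -3.38. Fish were assigned to groups without regard to sex, and the sexes in each pool are not given in the sources used here. A_15_P115094, which has no gene name, was above background on 1 Control array and all Day 2 arrays and was at least 9.77-fold higher (adjusted P-value 0.00181).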
